A study of Mus musculus with 6 samples.

Results

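The genes described here are 50 named genes of G2 and mitosis, picked by their symbols out of the 23420 rows of each deposited table: cyclins and their kinase partners, mitotic kinases, spindle checkpoint and kinetochore proteins, condensins, kinesins and cytokinesis proteins. All 50 were found, and 49 passed the filter on low values, a value over -0.76 in at least 3 of the 6 samples (about 10 reads). The samples were WT BALB/c splenic B cells purified with beads, from 3 mice aged 7 to 11 weeks, cultured as 10M cells at 10M/ml. The 3 CpG-stimulated samples had received the TLR9 agonist CpG ODN 1826 at 10 µg/ml for 4 hours, and the 3 unstimulated samples had received none. No allele was altered and no transgene was carried in either group. Replicates 1 and 2 of each group are labelled female and replicate 3 male. The labels do not say whether a replicate number stands for the same mouse in both groups, nor whether samples came from separate cultures, so the tests measure the spread between these samples. Values are log2 CPM (reads of a gene scaled to the size of the library, on a log2 scale), in which a library size of about 17.8M reads is implied after normalization, so that a value of 2 stands for about 70.6 reads and a value of 0 for about 17.3 reads. Counting error alone then gives an SD of about 0.17 at a value of 2 and 0.35 at a value of 0, on the log2 scale.

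Before a cell divides, CDC25 phosphatases remove the inhibitory phosphates from CDK1, and the kinase with its B-type cyclin drives entry into mitosis. Condensins then compact the chromosomes, kinetochores built on the centromeric histone CENPA attach them to the spindle, and the checkpoint holds the anaphase-promoting complex (APC/C) and its activator CDC20 in check until attachment is complete. Many of these genes are repressed in resting cells by the DREAM complex and switched on late in the cell cycle by B-MYB (Mybl2) and FOXM1, through a promoter motif called the CHR (cell cycle genes homology region) and nearby CCAAT boxes bound by NF-Y. Splenic B cells are mostly resting, and a TLR9 ligand drives them into the cell cycle and later into division.

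The promoters were searched for these motifs. The genes were chosen by name and not by motif. Since many genes of this kind are known to be controlled through these motifs, the shares are a description and not an independent test. The RefSeq table (build GRCm38.p6, 250 bases before to 50 after each start) held 44 promoters of 41 of the 50 genes, and none for Aurkb, Ccna2, Cdc25c, Foxm1, Incenp, Kif20a, Smc4, Spc24 and Tpx2. The CHR was searched on both strands as TTTGAA (on the other strand TTCAAA) and as the palindromic variant TTCGAA. It lay in 36 of 44 (81.8%), against 19.2% of all 32851 promoters in the table. A CCAAT box, searched as CCAAT or ATTGG, lay in 34 (77.3%) against 37.4%, and both motifs in 32 (72.7%) against 7.52%. At least 2 CCAAT boxes lay in 50% of the member promoters against 11.7% of all. The CHR sat close to the start, within 50 bases of it in 72.7% of member promoters against 5.31% of all, and the median distance was -18 bases for a CHR and -71 for a CCAAT box, with 1 pair of matches overlapping. A match is a description of the letters in the window and does not show that a factor binds there.

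Stretches from 100 bases before to 30 after the start show this arrangement, with CHR and CCAAT matches in capitals. Cdc20 rose after CpG, Ccnb2 and Cdk1 did not pass the test, and Cenpa, Cdc25b and Racgap1 fell, and all of these hold both motifs in the stretch.
Cdc20 promoter (GRCm38.p6 chr4:118437314-118437443, minus strand): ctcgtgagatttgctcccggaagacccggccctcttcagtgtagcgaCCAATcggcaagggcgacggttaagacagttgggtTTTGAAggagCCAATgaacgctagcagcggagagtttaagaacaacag
Ccnb2 promoter (GRCm38.p6 chr9:70421525-70421654, minus strand): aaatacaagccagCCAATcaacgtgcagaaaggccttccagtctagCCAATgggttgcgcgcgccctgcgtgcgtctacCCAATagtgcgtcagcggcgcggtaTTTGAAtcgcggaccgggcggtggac
Cdk1 promoter (GRCm38.p6 chr10:69352883-69353012, minus strand): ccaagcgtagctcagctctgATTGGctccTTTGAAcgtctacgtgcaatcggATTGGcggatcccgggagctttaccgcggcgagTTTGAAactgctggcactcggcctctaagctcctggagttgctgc
Cenpa promoter (GRCm38.p6 chr5:30666786-30666915, plus strand): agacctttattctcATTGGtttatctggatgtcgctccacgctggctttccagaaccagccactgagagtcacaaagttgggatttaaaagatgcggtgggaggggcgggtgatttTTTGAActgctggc
Cdc25b promoter (GRCm38.p6 chr2:131186848-131186977, plus strand): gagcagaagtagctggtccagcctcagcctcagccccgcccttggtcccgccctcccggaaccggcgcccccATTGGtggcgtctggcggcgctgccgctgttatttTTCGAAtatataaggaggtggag
Racgap1 promoter (GRCm38.p6 chr15:99651627-99651756, minus strand): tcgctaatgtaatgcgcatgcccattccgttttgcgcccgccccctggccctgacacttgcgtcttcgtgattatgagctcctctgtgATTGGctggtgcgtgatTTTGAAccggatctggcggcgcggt
Kif18a, among the most lowered genes, and Birc5, the most raised, are shown because neither motif was found in their windows.
Kif18a promoter (GRCm38.p6 chr2:109280638-109280767, plus strand): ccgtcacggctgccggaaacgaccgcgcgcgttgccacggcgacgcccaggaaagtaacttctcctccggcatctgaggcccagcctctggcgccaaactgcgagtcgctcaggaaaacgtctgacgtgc
Birc5 promoter (GRCm38.p6 chr11:117849137-117849266, plus strand): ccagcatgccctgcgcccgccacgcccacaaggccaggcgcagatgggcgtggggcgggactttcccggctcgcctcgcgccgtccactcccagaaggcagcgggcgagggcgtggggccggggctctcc
Promoters with a CHR were found in every response class: 5 of 6 promoters of raised genes, 6 of 10 of lowered genes and 25 of 28 of genes that did not pass the test. Of promoters of lowered genes, 5 of 10 held both motifs, against 22 of 28 of those that did not pass. In comparison, a CHR lay in 15.9% of promoters of DNA replication genes and in 53.7% of those of other mitotic genes.

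**Figure D1:**
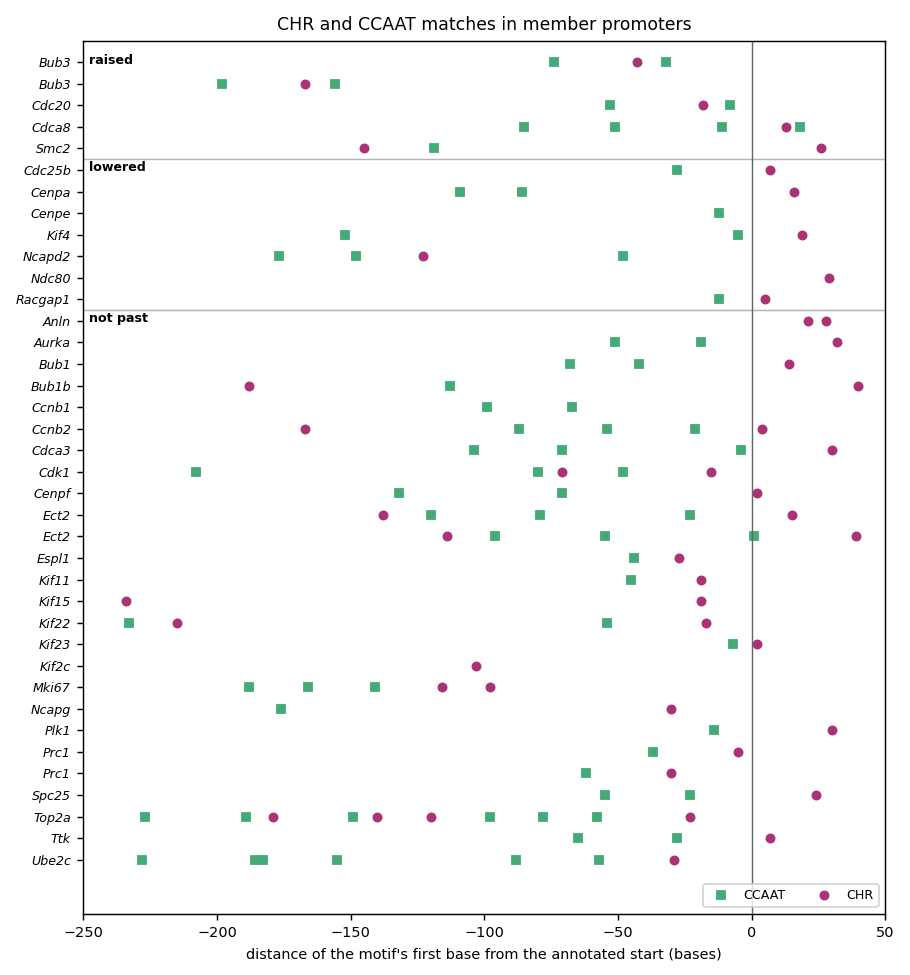
CHR (circles) and CCAAT (squares) matches in the RefSeq promoters of the G2 and mitosis genes, by the distance in bases of the motif's first base from the annotated start (x axis), 1 row per promoter with a match, grouped as raised, lowered and not past the test. Most CHR matches lie within 50 bases of the start, and CCAAT boxes mostly lie before them.

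Libraries were compared first for markers of B cells and of other cell types. B cell markers were high in all samples (summed CPM of the 7 markers 3706 to 4356 in unstimulated and 2438 to 2796 in CpG-stimulated samples), and the T cell genes Cd3d, Cd3e, Cd3g, Cd4, Cd8a and Thy1 lay near or below the level of 3 reads, a value of -2.34, in most samples, whereas Lck, also used as a T cell marker, read 6.14 to 7.14. Plasma cell markers summed to 828 to 1182 CPM without CpG and 468 to 602 CPM with it, and germinal center B cell markers, of which Bcl6 is the highest, to 112 to 125 and 203 to 293 CPM. Markers of plasmacytoid dendritic cells summed to 16.3 to 17.5 and 26.5 to 31.3 CPM, and of myeloid cells to 6.90 to 13.0 and 10.0 to 15.6 CPM. Those of megakaryocytes summed to 6.62 to 9.77 and 5.93 to 6.72 CPM, and of NK cells to 3.05 to 3.55 and 1.47 to 2.58 CPM. Genes within a list differed. Bst2, the highest plasmacytoid dendritic cell marker, rose (log2FC 0.92), Ccr9 fell (-0.94), and Siglech and Klk1 did not pass the filter. Of the myeloid markers tested, Adgre1, the highest, rose (0.83), Csf1r fell (-1.61), and Lyz2 and Itgam did not pass the test. Of the NK cell markers, Prf1 fell (-1.57), while Klrb1c, not tested, had means of -4.65 and -0.13. Erythroid genes stood apart in replicate 2 of both groups: all 13 of the erythroid markers that passed the filter (18 listed, 17 in the files) were highest there, with a summed CPM of 3911 in unstimulated replicate 2 against 419 and 518 in replicates 1 and 3, and 4963 against 391 and 629 after CpG. Hba-a1 and Hba-a2 were at the level of no reads throughout. The G2 and mitosis genes leaned the same way but far less, with 13 of 49 (26.5%) highest in replicate 2 of both groups against 14.5% of all genes tested. In unstimulated cells replicate 2 lay a median 0.22 above the other replicates for these genes and 2.45 above for the erythroid markers, and after CpG 0.10 and 2.41 above. The part of these other cell types in the values of the G2 and mitosis genes was not tested, and in bulk RNA a change in the number of cells of a type cannot be told apart from a change in RNA per cell.

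**Figure D2:**
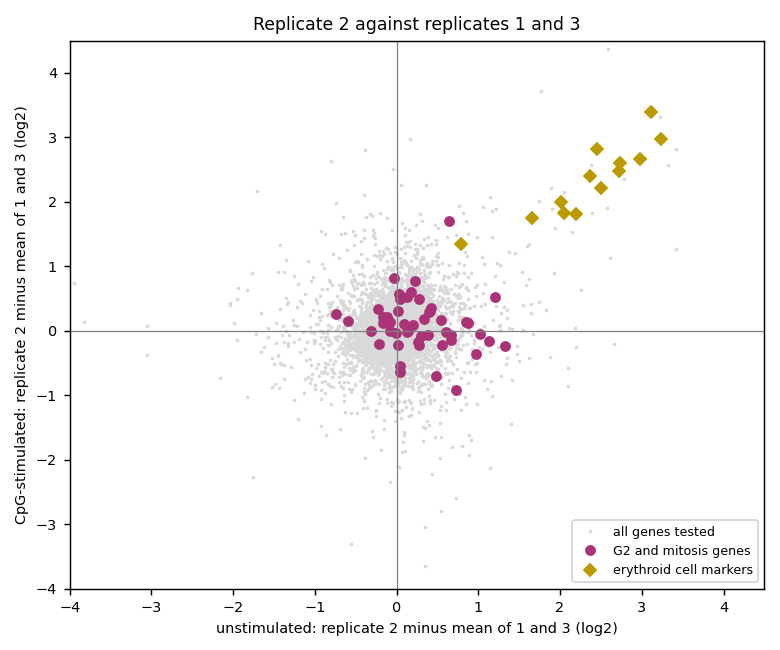
Replicate 2 minus the mean of replicates 1 and 3 (log2) in the unstimulated (x axis) and CpG-stimulated (y axis) groups, for the 49 G2 and mitosis genes tested, 13 erythroid cell markers and all 11233 genes tested. The erythroid markers lie together in the upper right, with medians of 2.45 and 2.41, while the G2 and mitosis genes lie around 0.22 and 0.10.

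At 4 hours the G2 and mitosis genes did not move as a block. At FDR under 0.05 (limma, all 11233 genes tested), 7 of 49 were raised, where 37.6% of all genes were, and 13 were lowered, where 36.7% of all genes were, so 40.8% of them passed in either direction against 74.3% of all genes. With the study's added threshold of log2FC over 1, only Birc5 was raised (15.8% of all genes), and Cenpa, Cdc25b, Ndc80, Kif18a, Smc4 and Cenpe were lowered beyond -1 (15.3% of all genes). The median log2FC was 0.01, and 0.00 over all genes tested. Of the 29 genes that did not pass, 22 had a 95% interval that stayed within a log2FC of 1 on both sides, 3 had one that reached over 1 and 4 had one that reached under -1. The lowered genes were changed more than the raised ones: the range was -3.08 to -0.34 among lowered genes and 0.30 to 1.31 among raised genes.

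Grouped by the mean over the 6 samples, genes at all levels were called in both directions. Grouped by the unstimulated mean, 3 of the 25 genes under 2 were raised and 0 lowered (37.8% and 20.3% of all genes there). Lowered genes there were 8 of 15 between 2 and 4 (33.3% of all genes) and 5 of 9 over 4 (43.5%). Both groupings use values that also enter the log2FC. Of the 28 genes with a mean over the 6 samples under 2, 3 were raised and 3 lowered, where 29.2% and 29.1% of all genes at that level were. Of the 13 genes between 2 and 4, 2 were raised and 6 lowered (36.9% and 35.3% of all genes there), and of the 8 over 4, 2 were raised and 4 lowered (40.8% and 39.8%). The genes were weakly expressed, with a median level of 1.87 against 4.69 over all genes tested, and their median SE was 0.21 against 0.10. By the mean over the 6 samples, the median SE under 2 was 0.24, and 0.31 over all genes there. It went the other way at higher levels, with 0.18 against 0.14 between 2 and 4 and 0.10 against 0.08 over 4. Of the 49 genes, 48 were over the filter in all 6 samples, as were 91.3% of all genes tested.

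**Figure D3:**
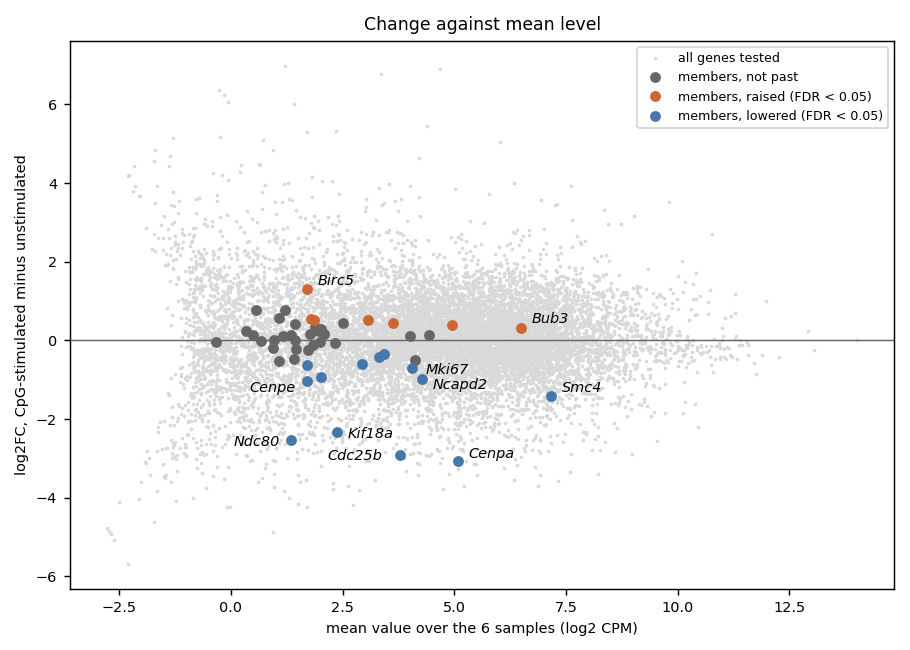
log2FC (CpG-stimulated minus unstimulated, y axis) against the mean value over the 6 samples (log2 CPM, x axis) for all 11233 genes tested (grey) and the 49 G2 and mitosis genes. Lowered genes are found from Ndc80 at the low end to Smc4 at the high end, and 22 of the 28 genes under a mean of 2 did not pass.

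Together the 49 genes summed to 701, 787 and 760 CPM in the unstimulated samples and to 452, 496 and 472 CPM in the CpG-stimulated samples, and the groups did not overlap. The lower sum came mostly from Smc4, Cenpa and Cdc25b, chosen after their values were seen, which together gave 371 ± 24.7 CPM (SD, n = 3) and 106 ± 15.8 CPM. The other 46 genes gave 378 ± 27.2 CPM and 368 ± 10.4 CPM, and there the groups overlapped. Per kilobase of annotated exon (log2 CPM per kb), Smc4 was highest in both groups (5.49 and 4.08), Cenpa at rank 2 in unstimulated cells (4.07) and 11 after CpG (0.99), Bub3 at rank 3 and then 2 (3.53 and 3.83), and Cdc25b fell in this order from 3.33 to 0.43. Cdk1 stood at -1.48 (rank 42 of 50) and -0.71 (rank 33) on the same scale.

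**Figure D4:**
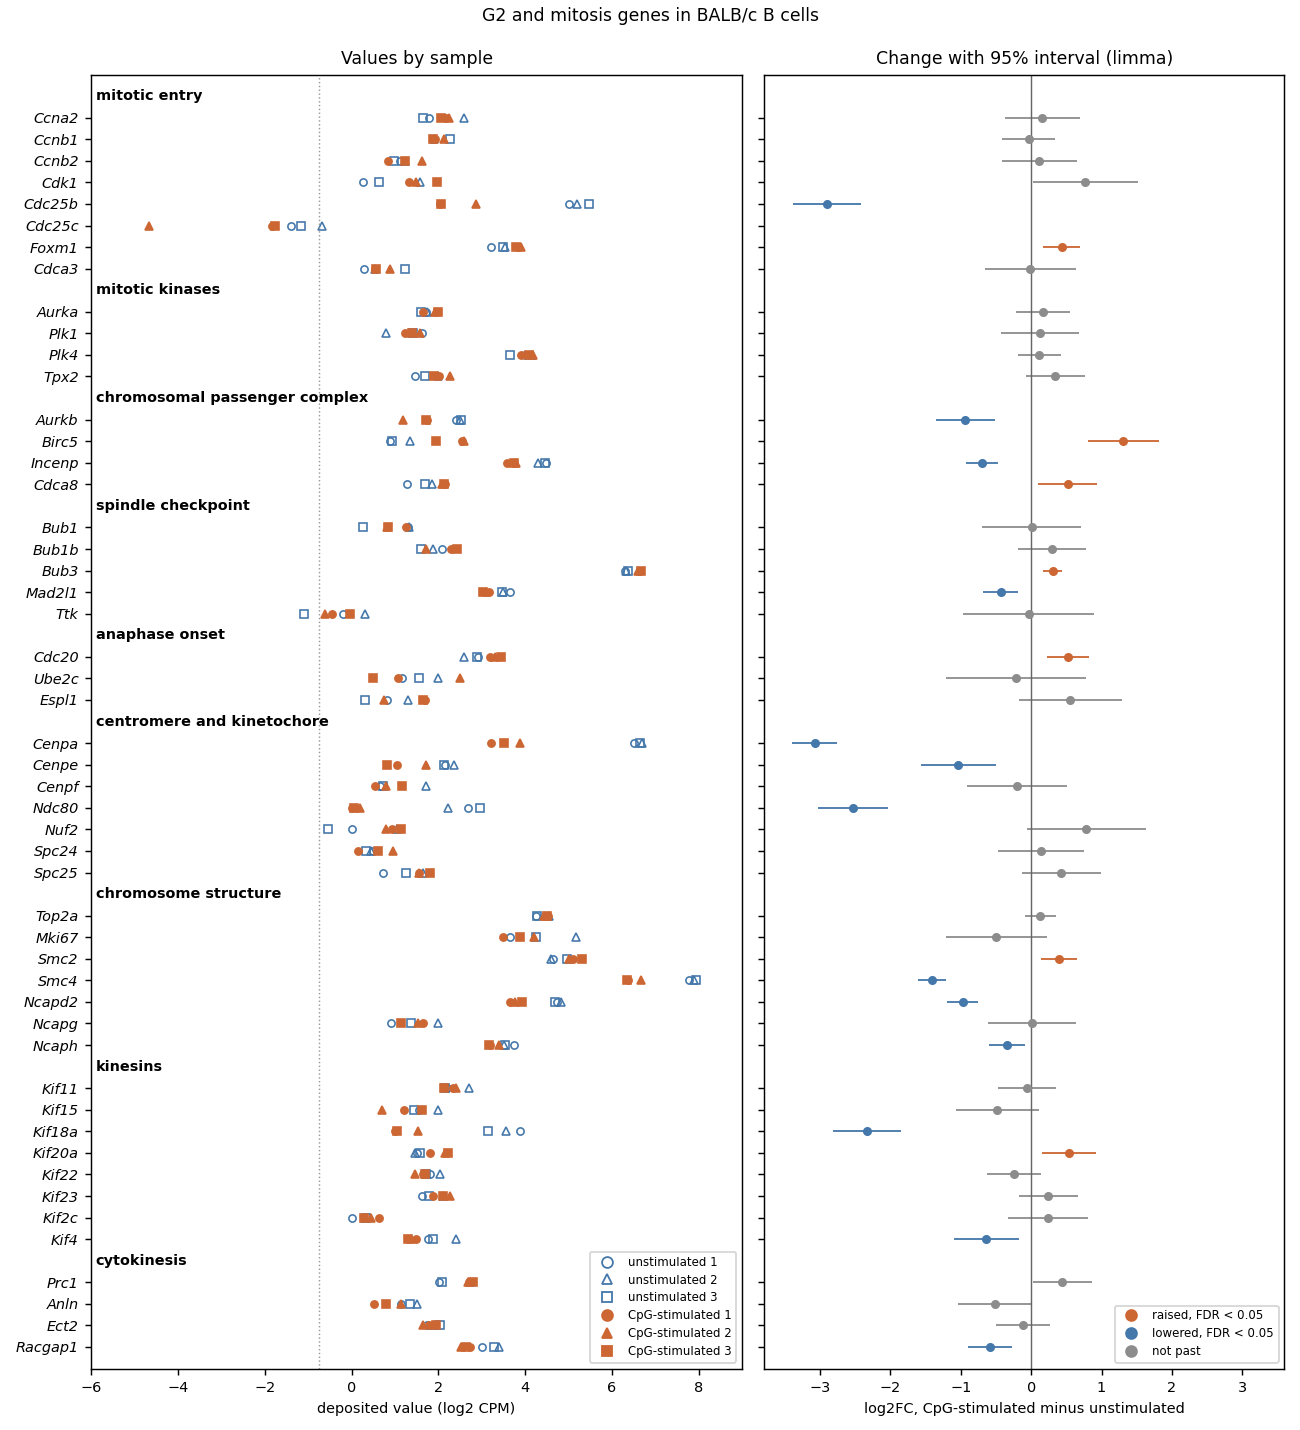
Left, deposited values (log2 CPM) of the 50 G2 and mitosis genes in each sample by role, with open blue symbols for unstimulated and filled orange symbols for CpG-stimulated samples, a different shape for each replicate number and a dotted line at the filter value of -0.76. Right, log2FC with its 95% interval from limma, where Cenpa, Cdc25b, Ndc80 and Kif18a lie beyond -2 and Birc5 alone lies above 1.

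Of the genes of mitotic entry, 1 of the 7 tested was raised and 1 lowered. The lowered gene was Cdc25b (chr2:131186949-131198497, mm10, plus strand), a phosphatase that activates CDK-cyclin complexes. Cdc25b gave 5.02, 5.21 and 5.47 in the unstimulated samples and 2.04, 2.88 and 2.07 in the CpG-stimulated samples. Every CpG-stimulated sample lay more than 2 log2 units below every unstimulated one, a fold of 0.134 (log2FC -2.90 ± 0.21 (SE), FDR = 9.29e-07). The raised gene was Foxm1, the transcription factor of late cell cycle genes. For Foxm1, values of 3.21, 3.55 and 3.48 without CpG compared with 3.85, 3.90 and 3.78 after CpG. The groups did not overlap, but the shift was small, a fold of 1.35 (log2FC 0.43 ± 0.12 (SE), FDR = 0.00674). Exon overlaps of Foxm1 on the same strand add up to 241 bases over its partners Gm44596 and Tex52.

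Cdk1, the mitotic kinase itself, was low and uneven. Cdk1 was at 0.27, 1.57 and 0.62 in unstimulated cells and at 1.32, 1.49 and 1.97 in CpG-stimulated cells. Unstimulated replicate 2 lay inside the CpG-stimulated range, and Cdk1 did not pass (log2FC 0.77 ± 0.33 (SE), FDR = 0.0575), although it passed with the replicate number as a block (FDR = 0.0248). Ccnb1, the B-type cyclin that partners CDK1, did not pass, and its groups overlapped. Ccnb1 values were 1.88, 1.90 and 2.26 in unstimulated replicates 1 to 3 and 1.92, 2.12 and 1.89 in CpG-stimulated replicates 1 to 3. Its log2FC was -0.04 with a 95% interval of -0.42 to 0.35, and 35.2% of its 75-base stretches are also found in other annotated transcripts, most of them in Ccnb1-ps, so its reads may have been split. Ccna2, Ccnb2 and Cdca3, which encode cyclins and a mitotic entry factor, had log2FC of -0.01 to 0.16. Cdc25c, a second phosphatase of the family, was the gene just outside the filter, with 1 sample over it. Cdc25c gave -1.40, -0.69 and -1.17 in the unstimulated samples and -1.83, -4.66 and -1.77 in the CpG-stimulated samples. These values stand for under 10 reads in all but that sample, and Cdc25c was not tested.

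None of the 4 mitotic kinase genes and partners passed, and their log2FC lay between 0.12 and 0.35. Aurka encodes the kinase of spindle poles. For Aurka, values of 1.72, 1.75 and 1.60 without CpG compared with 1.65, 1.92 and 1.998 after CpG. Its log2FC was 0.17 with a 95% interval of -0.21 to 0.55. Plk1 encodes the polo-like kinase that promotes mitotic entry and spindle assembly. Plk1 was at 1.64, 0.79 and 1.43 in unstimulated cells and at 1.24, 1.58 and 1.40 in CpG-stimulated cells. Unstimulated replicate 2 was the lowest of the 6, and the log2FC of Plk1 was 0.12 with an interval of -0.43 to 0.68. Plk4, the kinase of centriole duplication, and Tpx2, the activator of Aurora A, had log2FC of 0.12 and 0.35.

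All 4 genes of the chromosomal passenger complex passed, and they went in opposite directions although their proteins act as 1 complex at centromeres and the spindle midzone. Birc5 (survivin; chr11:117849251-117855743, plus strand), which targets the complex and is also an inhibitor of apoptosis family member, was the most raised of the 49. Birc5 values were 0.89, 1.34 and 0.93 in unstimulated replicates 1 to 3 and 2.54, 2.60 and 1.94 in CpG-stimulated replicates 1 to 3. All CpG-stimulated samples lay above all unstimulated ones, a fold of 2.47 (log2FC 1.31 ± 0.23 (SE), FDR = 0.00042). Cdca8 (borealin) also rose. Cdca8 gave 1.27, 1.86 and 1.69 in the unstimulated samples and 2.16, 2.09 and 2.14 in the CpG-stimulated samples. The groups came within 0.22 of each other (log2FC 0.52 ± 0.19 (SE), FDR = 0.0286), and Cdca8 shares 232 exon bases with the antisense transcript 9930104L06Rik. Aurkb, the kinase of the complex, fell. For Aurkb, values of 2.40, 2.50 and 2.53 without CpG compared with 1.75, 1.18 and 1.71 after CpG. The CpG-stimulated samples, of which replicate 2 was the lowest, lay below all unstimulated ones (log2FC -0.93 ± 0.19 (SE), FDR = 0.00112). Incenp, the scaffold that binds and activates the kinase, fell as well. Incenp was at 4.47, 4.29 and 4.45 in unstimulated cells and at 3.59, 3.79 and 3.75 in CpG-stimulated cells. Both groups were narrow and lay apart (log2FC -0.70 ± 0.10 (SE), FDR = 0.000112), so kinase and scaffold fell while the 2 targeting subunits rose.

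Of 5 spindle checkpoint genes, 1 was raised and 1 lowered. Bub3, a checkpoint protein that docks BUB1 and BUBR1 at kinetochores, was among the highest of all members. Bub3 values were 6.30, 6.33 and 6.37 in unstimulated replicates 1 to 3 and 6.64, 6.61 and 6.66 in CpG-stimulated replicates 1 to 3. The spread within groups was under 0.04 (SD 0.04 and 0.03), so that a fold of only 1.23 passed (log2FC 0.30 ± 0.06 (SE), FDR = 0.000892). Mad2l1, the inhibitor of CDC20, had a mean of 3.53 ± 0.10 (SD) in unstimulated and 3.10 ± 0.07 in CpG-stimulated samples (log2FC -0.43 ± 0.11 (SE), FDR = 0.0046). Bub1 and Bub1b, checkpoint kinases, had log2FC of 0.01 and 0.29 and did not pass. Ttk, the kinase at the head of the checkpoint, was the member just inside the filter, with 5 of 6 samples over it. Ttk gave -0.20, 0.32 and -1.10 in the unstimulated samples and -0.45, -0.61 and -0.03 in the CpG-stimulated samples. The groups overlapped, and the 95% interval of its log2FC, -0.96 to 0.90, was among the widest.

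Of 3 genes of anaphase onset, Cdc20, the APC/C activator that the checkpoint restrains, was raised. For Cdc20, values of 2.91, 2.59 and 2.90 without CpG compared with 3.19, 3.32 and 3.45 after CpG. The lowest CpG-stimulated sample lay above the highest unstimulated sample, at a fold of 1.43 (log2FC 0.52 ± 0.14 (SE), FDR = 0.00549), and 53 exon bases are shared with the antisense gene Elovl1, which was raised too (log2FC 0.75). Ube2c, the ubiquitin-conjugating enzyme of the APC/C, had the widest spread after CpG among the 49 genes. Ube2c was at 1.17, 1.998 and 1.54 in unstimulated cells and at 1.07, 2.49 and 0.50 in CpG-stimulated cells. CpG-stimulated replicate 2 was high and replicate 3 low (SD 1.03), and the 95% interval of -1.21 to 0.78 left both directions possible. Espl1 (separase), which cuts cohesin at anaphase, had a log2FC of 0.56 ± 0.33 (SE) and did not pass.

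Of 7 centromere and kinetochore genes, 3 were lowered and none raised, and these include the largest changes of the set. Cenpa (chr5:30666777-30674830, plus strand), the histone H3 variant that marks centromeres, was the most lowered of the 49. Cenpa values were 6.51, 6.71 and 6.65 in unstimulated replicates 1 to 3 and 3.23, 3.89 and 3.51 in CpG-stimulated replicates 1 to 3. The groups lay over 2 log2 units apart, and the fold was 0.118 (log2FC -3.08 ± 0.15 (SE), FDR = 6.36e-08). Ndc80 (chr17:71496100-71526857, minus strand), the microtubule-binding subunit of the outer kinetochore, followed. Ndc80 gave 2.69, 2.22 and 2.95 in the unstimulated samples and 0.02, 0.18 and 0.05 in the CpG-stimulated samples. CpG-stimulated samples were within 0.2 of each other near a value of 0, which is about 17.3 reads, at a fold of 0.172 (log2FC -2.54 ± 0.22 (SE), FDR = 3.29e-06). Cenpe, the kinetochore motor, fell less. For Cenpe, values of 2.16, 2.37 and 2.14 without CpG compared with 1.04, 1.71 and 0.82 after CpG. CpG-stimulated replicate 2 came nearest to the unstimulated samples without overlap (log2FC -1.03 ± 0.24 (SE), FDR = 0.00259).

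None of the 3 partners of Ndc80 in its complex passed the test. Nuf2, its dimer partner, had values on both sides of 0 in unstimulated cells. Nuf2 was at 0.00, 1.05 and -0.54 in unstimulated cells and at 0.93, 0.80 and 1.14 in CpG-stimulated cells. Only unstimulated replicate 2 overlapped the CpG-stimulated samples, and Nuf2 did not pass, with a log2FC of 0.78 and a 95% interval of -0.06 to 1.63. Spc24 and Spc25 had log2FC of 0.14 and 0.43 with intervals of -0.47 to 0.75 and -0.13 to 0.99, none of which reaches the interval of Ndc80 (-3.04 to -2.04). Cenpf, a large protein of the outer kinetochore, had a log2FC of -0.20 and did not pass. Nuf2, Spc24, Spc25 and Cenpf are named outside the rule for named genes, as are the other members given by log2FC alone.

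Of 7 genes of chromosome structure, 1 was raised and 3 were lowered, and the condensins split. Smc4 (chr3:69004738-69034623, plus strand), an ATPase core of both condensin complexes, was the highest member of all. Smc4 values were 7.78, 7.89 and 7.95 in unstimulated replicates 1 to 3 and 6.36, 6.67 and 6.35 in CpG-stimulated replicates 1 to 3. The spread was under 0.2 in each group against a difference of over 1, a fold of 0.376 (log2FC -1.41 ± 0.09 (SE), FDR = 3.74e-07). Its dimer partner Smc2 moved the other way. Smc2 gave 4.65, 4.60 and 4.97 in the unstimulated samples and 5.11, 5.002 and 5.31 in the CpG-stimulated samples. Its rise was small, 1.32-fold (log2FC 0.40 ± 0.12 (SE), FDR = 0.0108). Of the condensin I subunits, Ncapd2 fell. For Ncapd2, values of 4.74, 4.84 and 4.69 without CpG compared with 3.66, 3.77 and 3.93 after CpG. The groups lay 0.76 apart at their nearest (log2FC -0.97 ± 0.10 (SE), FDR = 9.03e-06). Exon overlaps of Ncapd2 on the same strand add up to 472 bases over its partners Gm28967 and Scarna10. Scarna10 is a small RNA that was not over the filter. Ncaph, the subunit that bridges the SMC heads, had a log2FC of -0.34 ± 0.12 (SE; FDR = 0.0221), and Ncapg one of 0.01 that did not pass.

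The commonly used marker of cycling cells, Mki67, did not pass. Mki67 was at 3.66, 5.17 and 4.26 in unstimulated cells and at 3.49, 4.21 and 3.89 in CpG-stimulated cells. Replicate 2 was the highest in both groups, by 1.21 over the mean of the others in unstimulated and 0.52 in CpG-stimulated samples, and the log2FC was -0.50 (FDR = 0.185). With the replicate number as a block Mki67 was lowered (FDR = 0.00359), and each CpG-stimulated sample lay below the unstimulated sample of its number. Top2a, the topoisomerase that untangles chromosomes, did not pass either. Top2a values were 4.26, 4.56 and 4.27 in unstimulated replicates 1 to 3 and 4.52, 4.44 and 4.51 in CpG-stimulated replicates 1 to 3. Its 95% interval, -0.09 to 0.36, allows little change in either direction.

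Of 8 kinesins, 1 was raised and 2 were lowered. Kif18a (chr2:109280738-109341747, plus strand), which dampens chromosome movement at the metaphase plate, stood far from the others. Kif18a gave 3.88, 3.56 and 3.15 in the unstimulated samples and 1.005, 1.52 and 1.06 in the CpG-stimulated samples. The lowest unstimulated sample lay 1.63 above the highest CpG-stimulated one, and the fold was 0.198 (log2FC -2.34 ± 0.21 (SE), FDR = 4.38e-06). Its exons share only 11 bases with the antisense gene Mettl15, which was lowered too (log2FC -1.20). Kif4, the chromosome-bound motor that works with condensin, also fell. For Kif4, values of 1.76, 2.41 and 1.87 without CpG compared with 1.48, 1.36 and 1.29 after CpG. The lowest unstimulated and highest CpG-stimulated samples were 0.28 apart (log2FC -0.64 ± 0.21 (SE), FDR = 0.0174). Kif4 shares 832 exon bases with antisense Pdzd11. Reads there may have been counted for either gene or left out, since the strand setting of the counting is not stated.

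Kif20a, a motor of the central spindle, was raised. Kif20a was at 1.52, 1.47 and 1.57 in unstimulated cells and at 1.82, 2.15 and 2.22 in CpG-stimulated cells. The groups did not overlap (log2FC 0.54 ± 0.17 (SE), FDR = 0.0164). It shares 1271 exon bases with antisense Cdc23, an APC/C subunit. Cdc23 had an unstimulated mean of 5.01 and was raised by 0.28 on the log2 scale. If strand was ignored, reads in these shared bases cannot be assigned to either gene by position. Whether such reads were counted for Kif20a or left out is not stated. In all, 16 of the 50 genes share annotated exon bases with another gene, 13 of them on the opposite strand, such as Prc1 with Rccd1 (911 bases, log2FC of Rccd1 0.72) and Cdc25b with Spef1 (92 bases, log2FC of Spef1 1.53). The other 5 kinesins, Kif11, Kif15, Kif22, Kif23 and Kif2c, which act in spindle bipolarity, chromosome arm movement, the central spindle and microtubule depolymerization, had log2FC of -0.48 to 0.25 and did not pass.

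Of 4 cytokinesis genes, Racgap1, which with Kif23 forms the centralspindlin complex, was lowered, from 3.23 ± 0.21 (SD, n = 3) to 2.64 ± 0.11 (log2FC -0.59 ± 0.14 (SE), FDR = 0.00343), while Kif23 had a log2FC of 0.25 with a 95% interval of -0.17 to 0.66. Prc1, the bundler of the midzone microtubules, had a log2FC of 0.45 and did not pass (FDR = 0.0563), and it passed with the replicate number as a block (FDR = 0.0344). Anln (anillin), a scaffold of the contractile ring, and Ect2, which acts in cytokinesis, had log2FC of -0.51 and -0.11 and did not pass.

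Of the 20 calls, 15 were made under every other setting tried except a test against a log2FC of 0.5, under which 7 were made. The other 5, Cdca8, Smc2, Kif20a, Ncaph and Kif4, all had a log2FC within 0.65 of 0 and each lost its call in 2 to 5 settings, which included leaving out CpG-stimulated replicate 3 for all of them. Replicate 3 is the only one labelled male in each group, so sex and library cannot be told apart there. Both samples of a number were left out together for numbers 2 and 3 and not for number 1. The count of raised genes changed with single libraries. It was 4 without CpG-stimulated replicate 3 and 11 without unstimulated replicate 2, when Cdk1, Nuf2, Spc25 and Prc1 were added. Leaving out 1 sample leaves its replicate number in 1 group only, so differences between replicate numbers can then enter the log2FC. With both samples of number 2 left out, 12 genes were raised and 12 lowered, and 4 were raised over log2FC 1 (Birc5, Cdk1, Espl1 and Nuf2). Leaving out single samples kept the lowered count between 12 and 15.

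Genes that act on or beside this set were counted in the same fit, to be read against the 37.6% of all genes raised and 36.7% lowered. Of 19 E2F, MYB and DREAM factors tested, the regulators of cell cycle genes, 8 were raised and 8 lowered (42.1% each), with a median log2FC of 0.24. Mybl2 (B-MYB) had the largest rise. Mybl2 values were 2.13, 2.47 and 1.51 in unstimulated replicates 1 to 3 and 6.08, 5.77 and 6.03 in CpG-stimulated replicates 1 to 3. No CpG-stimulated sample came within 3 log2 units of an unstimulated one (log2FC 3.92 ± 0.21 (SE), FDR = 1.14e-07). Tfdp1, a dimer partner of E2F proteins, rose by 1.76, while its relative Tfdp2 fell by 1.92 and Rbl2 (p130), the pocket protein of DREAM in resting cells, fell by 1.55 on the log2 scale. Rbl2 was well measured in all samples. Rbl2 gave 6.59, 6.47 and 6.75 in the unstimulated samples and 4.87, 5.05 and 5.25 in the CpG-stimulated samples. The groups did not overlap (FDR = 5.87e-07).

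Of 15 genes of CDK1 control, 7 were raised (46.7%) and 5 lowered (33.3%), with a median log2FC of 0.30. Wee1, the kinase that puts the inhibitory phosphate on CDK1 and so opposes CDC25, rose. For Wee1, values of 4.80, 4.42 and 4.35 without CpG compared with 6.52, 6.65 and 6.25 after CpG. The groups were 1.45 apart at their nearest (log2FC 1.95 ± 0.13 (SE), FDR = 5.55e-07). Of the phosphatases that oppose Wee1, Cdc25a, named here outside the rule, was raised as well (log2FC 0.97, FDR = 1.22e-05), whereas Cdc25b fell. Gadd45b and Gadd45a, stress-induced relatives that can inhibit CDK1, went in opposite directions, by 2.17 and -2.06, and Chek2, a DNA damage checkpoint kinase, fell by 0.83 on the log2 scale.

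Of 64 other mitotic genes, 12 were raised (18.8%) and 13 lowered (20.3%), or 39.1% beside the 40.8% of the set itself, with a median log2FC of -0.09. Melk, a mitotic kinase, was raised by 2.34 and Cenpm, a kinetochore subunit, by 1.84. Melk was at 1.04, 0.59 and 0.02 in unstimulated cells and at 2.80, 2.89 and 3.01 in CpG-stimulated cells. Every CpG-stimulated sample lay above all unstimulated ones for Melk. Ska1, which couples NDC80 to microtubules, fell by 1.52 and Depdc1a by 1.496 on the log2 scale, both from values near 0 or 1.

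Of 17 APC/C subunits and partners, 7 were raised (41.2%) and 3 lowered (17.6%; median 0.08). Anapc10 (1.07) and Cdc16 (0.93) were the most raised, and Fbxo5 (-0.55), the APC/C inhibitor, and Anapc2 (-0.43) the most lowered. Of 14 cohesin genes 2 were raised (14.3%) and 9 lowered (64.3%; median -0.28), led by Cdca5 (sororin, 1.18) and Pds5b (0.39) on the raised side and by Hdac8 (-1.04), the SMC3 deacetylase, and Rad21 (-0.91), the subunit cut by separase, on the lowered side. Of 44 DNA replication genes, 17 were raised and 12 lowered (median 0.13), or 38.6% and 27.3%. Tyms (2.37), which makes thymidylate, and Orc1 (1.86), an origin recognition subunit, rose most, and Cdt1 (-1.01), the licensing factor, and Rpa1 (-0.96), a single-strand binding protein, fell most. Differences between these lists were not tested, and each median is a description.

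**Figure D5:**
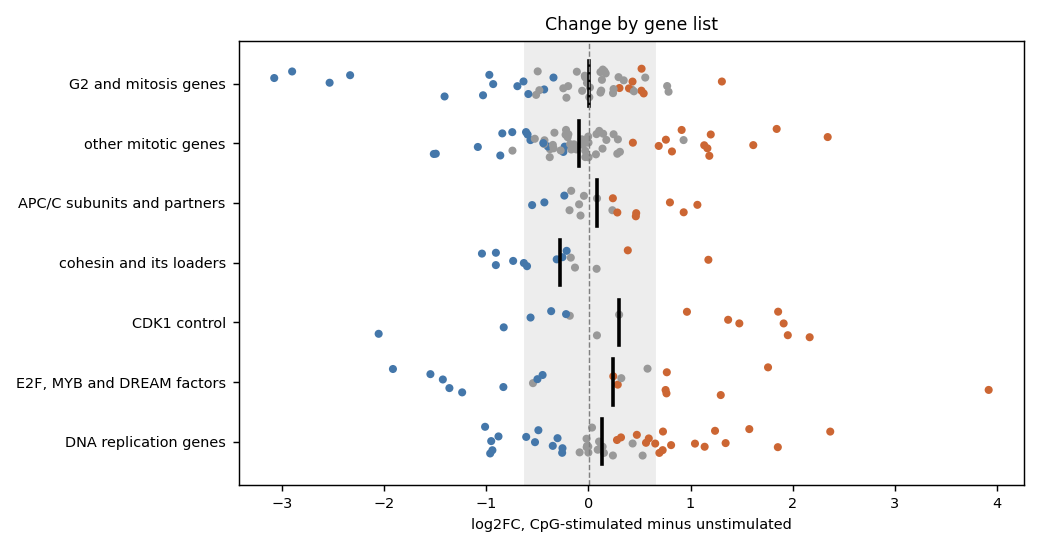
log2FC (x axis, CpG-stimulated minus unstimulated) of each gene tested in the G2 and mitosis set and in 6 related lists (rows), orange for raised, blue for lowered and grey for not past FDR 0.05, with a black bar at each median. The grey band spans the range from the lower to the upper quartile of all 11233 genes tested and the dashed line their median. The G2 and mitosis genes have a median of 0.01 with 4 genes beyond -2, and Mybl2 stands alone at 3.92.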

How the data were processed

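RNA was sequenced from 6 B cell samples (TruSeq stranded mRNA). Per the labels and the study's methods, reads had been aligned by STAR 2.6.1a (mm10) and counted per gene by featureCounts (Subread 2.0.1). The authors then quantile normalized the counts, ran voom and deposited log2 CPM values. The counting annotation and strand setting are not given in the sources used here. Quantile normalization gives every library 1 distribution, so original depths and a change in total RNA are not visible.

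From these values, genes over -0.76 in at least 3 samples (11233 of 23420) were fitted with lmFit and eBayes with a variance trend in limma 3.58.1 (R 4.3.3), CpG-stimulated minus unstimulated, with Benjamini-Hochberg adjustment over all genes tested. The fit was run on simulated data with independent noise, few changed genes and no shift by replicate number. There 89 of 100 genes set to a log2FC of 1.5 up or down were called, and 5 of 11033 unchanged genes. The simulation does not show how the fit behaves with the shift and the many changed genes of the real data. A fold is 2 to the power of the log2FC. Replicate-number pairing was checked: deviations from the group means correlated at 0.435, 0.224 and 0.300 for same-numbered samples and at -0.281 to 0.0279 for the others. Same-numbered samples also shared 2683 to 2950 identical low values against 486 to 580 for other pairs, so a shift by number is present that the methods do not describe. A shift of equal size in both samples of a number would leave the log2FC as it is. Whether the step behind it was of that kind was not tested. The shift bears on the spread between replicates.

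Members, lists and tests were chosen with earlier results of these data known. Values per sample are given for the 10 most lowered members at FDR under 0.05 and for all 7 raised ones, where the rule asked for up to 10. They are also given for Mki67, Top2a, Ccnb1, Cdk1, Plk1, Aurka, Aurkb, Foxm1, Cdc20 and Bub3, and for members at the filter. In each related list the 2 most raised and 2 most lowered genes are named. Exon overlaps and exon lengths come from GENCODE M21 (GRCm38, the build called mm10), and stretches of 75 bases were compared between its transcripts. Alternatives changed the filter, scale, block, samples, variance model, centring and null hypothesis.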

Additional observations from a re-analysis of the deposited data

How the results depend on the processing

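The count of members raised was 7, and it ranged from 4 to 11 when single samples were left out, was 12 with both samples of number 2 left out and 1 when tested against an absolute log2FC of 0.5. The count of members lowered was 13, ranged from 12 to 15 with single samples left out, and was 6 when tested against 0.5. The count raised over log2FC 1 was 1, ranged from 1 to 3 with single samples left out, was 4 with both samples of number 2 left out and 0 on the log2(CPM + 1) scale, where low values are compressed by construction. The count lowered under -1 ranged from 5 to 7. With the replicate number as a block, 9 members were raised and 14 lowered, the added calls being Cdk1, Prc1 and Mki67, and the block changed no other member's call. Of 875 single-gene values under the alternatives, 36 in 13 genes changed sign, and none of those genes passed the main test, while Ube2c passed without CpG-stimulated replicate 2 (log2FC -0.79, FDR = 0.0338). With both samples of number 3 left out, log2FC was 0.13 for Ccnb1, 0.30 for Cdca3, -0.041 for Plk4, -0.28 for Bub1 and 0.20 for Ube2c. With both of number 2 left out it was -0.0225 for Ccnb2, -0.21 for Plk1, 0.41 for Ttk, 0.16 for Cenpf, -0.042 for Spc24 and 0.0595 for Kif11, and on the log2(CPM + 1) scale it was -0.0114 for Bub1. With single samples left out, log2FC ranged from -0.028 to 0.45 for Ccna2, -0.11 to 0.0872 for Ccnb1, -0.0813 to 0.31 for Ccnb2, -0.21 to 0.26 for Cdca3, -0.12 to 0.30 for Plk1, -0.0252 to 0.23 for Plk4, -0.35 to 0.19 for Bub1, -0.42 to 0.29 for Ttk, -0.79 to 0.21 for Ube2c, -0.38 to 0.14 for Cenpf, -0.0503 to 0.35 for Spc24, -0.24 to 0.30 for Ncapg and -0.17 to 0.12 for Kif11. The cause of these shifts was not tested. With the CHR taken as TTTGAA alone, 77.3% of member promoters held it. Depth limits the low members most: at a value of 0 the counting SD is 0.35 on the log2 scale, and original library depths are not known.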
